A study of Mus musculus with 6 samples.

Results

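Of the 24623 genes measured in L4/5 dorsal root ganglia (DRGs), 9 belong to the output and accessory layer of the circadian clock: Dbp, Tef, Hlf, Nfil3, Bhlhe40, Bhlhe41, Rora, Rorb and Usp2. They were taken by gene symbol from the table of all genes, and all 9 were found, with 1 row each. The rule that selects them uses no measured value. Ganglia were taken from male C57BL/6 mice (wild type, 8 to 12 weeks of age), with no nerve injury stated. Mice of the LBP group had received a polysaccharide extract of wolfberry (LBP) by mouth at 100 mg/kg for 13 consecutive days, and mice of the control group had received the vehicle, phosphate-buffered saline (PBS). Each group has 3 samples with 1 Affymetrix whole-transcript mouse array for each sample, and the values are log2 intensities. The methods describe 3 separate groups of mice, with 3 mice per group, and RNA taken from each group. They do not say whether these groups are the treatments or the replicates. Nor do they say whether an array holds RNA of 1 mouse or of several, so that the spread between arrays may be that of pools. The hour at which the ganglia were taken is not given in the sources used here.

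In the mammalian clock, CLOCK and its partner BMAL1 (the product of Arntl) bind short DNA elements called E-boxes and switch on the Per and Cry genes, whose proteins then shut CLOCK and BMAL1 off. The same E-boxes drive output genes. Dbp, Tef and Hlf encode the 3 PAR bZIP factors, which activate genes through another element, the D-box. Nfil3 encodes a repressor that competes for the D-box, and Bhlhe40 and Bhlhe41 encode repressors that compete for the E-box. Rora and Rorb encode nuclear receptors that activate Arntl through an element where the REV-ERB proteins (Nr1d1, Nr1d2) repress it. Usp2 encodes a deubiquitinase that removes ubiquitin from clock proteins and whose transcript cycles in many organs.

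The elements these factors read can be seen in promoters of the mouse genome. RefSeq windows from 250 bases before to 50 bases after a gene's start were at hand for 8 of the 9 genes, all but Bhlhe40 (10 windows, build GRCm38.p6). The sequences below are shown because they hold the E-box (CACGTG) that Bhlhe40 and Bhlhe41 proteins bind, in 2 genes of the layer itself, and the D-box (TTATGTAA) that the PAR bZIP factors and Nfil3 bind, in a clock gene. They run 5′ to 3′ on the strand of the gene, with the element in capitals.
Tef, first start, chr15:81802529-81802568, plus strand: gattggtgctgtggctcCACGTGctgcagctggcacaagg
Tef, second start, chr15:81811259-81811298, plus strand: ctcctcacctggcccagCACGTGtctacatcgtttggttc
Bhlhe41, chr6:145865551-145865590, minus strand: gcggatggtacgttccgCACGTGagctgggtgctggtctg
Per3, chr4:151044806-151044880, minus strand: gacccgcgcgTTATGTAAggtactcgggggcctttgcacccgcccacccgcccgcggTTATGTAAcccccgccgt
The E-boxes begin 127 and 138 bases before the starts of Tef and 153 bases before that of Bhlhe41, and the D-boxes of Per3 begin 205 and 158 bases before its start. Searched on both strands, CACGTG was in 3 of the 10 windows and in 7.15% of all 32851 RefSeq windows. The D-box, searched as TTATGTAA or TTACGTAA, was in 0 of the 10 windows and in 1.06% of all windows. CACGTT, a weaker form of the E-box, was in 1 window (Rorb) of the 10 and in 4.68% of all windows. AGGTCA, the core of the element that the ROR receptors bind, was in 1 window (Nfil3) and in 16.3% of all windows. No 2 of the matches in these windows overlap. A match is a stretch of letters and not a measured binding site.

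To ask whether LBP was accompanied by a change in this layer, each gene was compared between LBP and PBS by limma, a per-gene linear model in which the estimate of the spread is moderated by all other genes. None of the 9 genes passed at an adjusted p under 0.05 (Benjamini-Hochberg over 24623 genes), a threshold passed by 0.00812% of all genes. Usp2 had the largest difference, with a mean 1.35-fold higher after LBP, and it was the 1 gene of the 9 with an unadjusted p under 0.05. Over all genes, 4.72% had such a p, 2.07% with higher and 2.65% with lower values after LBP. Of the 9 genes, 8 had a higher mean after LBP and 1, Hlf, a lower one, where 49.7% of all genes had a higher mean. The median log2 difference of the 9 was 0.12, where the median over all genes was -0.001. Without LBP replicate 2 the median of the 9 was 0.05, and Dbp and Rorb then also had lower means after LBP than after PBS. The smallest two-sided p that an exact permutation test of 3 arrays against 3 allows is 0.1. In bulk tissue, fewer cells of a type and less RNA per cell cannot be told apart.

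**Figure D1:**
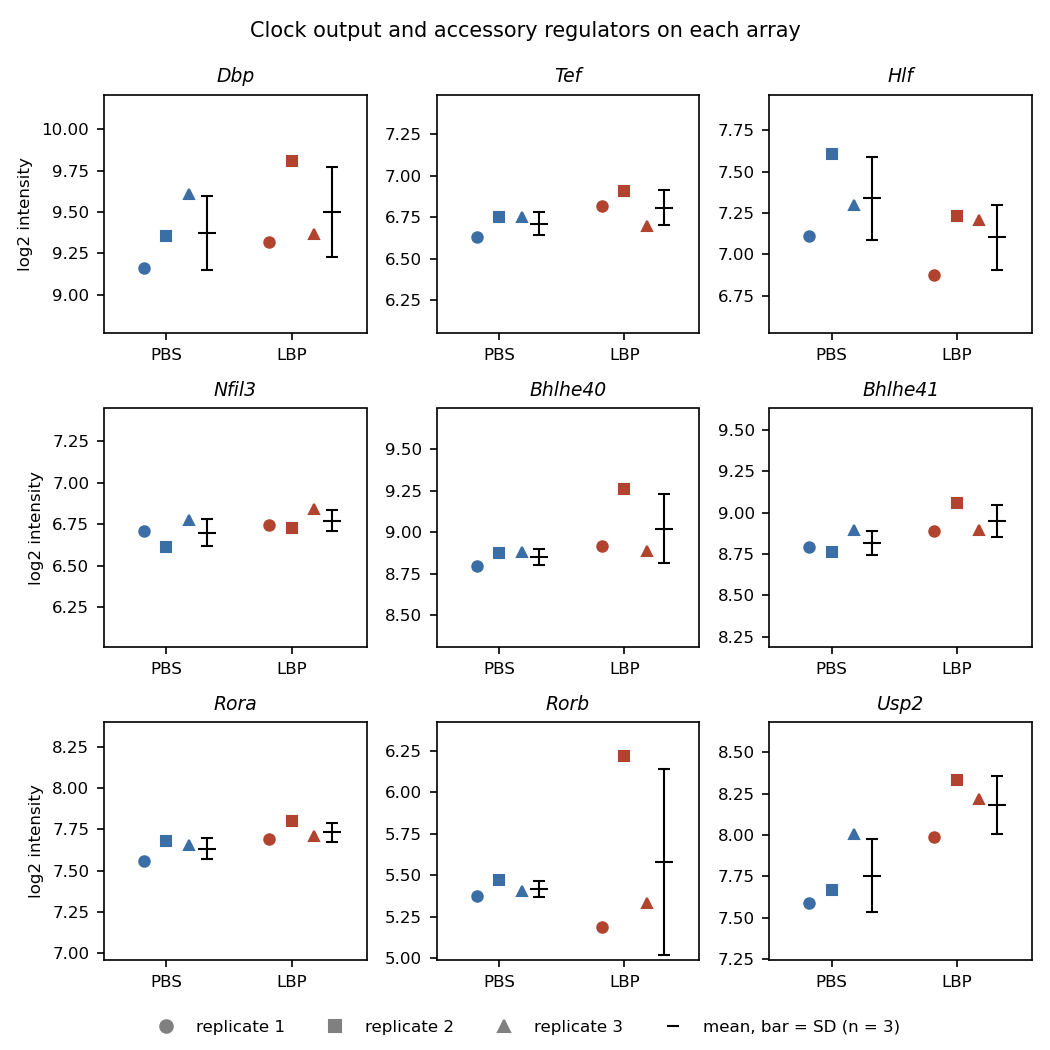
Log2 intensity of each gene (vertical axis, of the same height in every panel) on the 3 PBS arrays (blue) and the 3 LBP arrays (red), with the replicate number as the symbol and the mean and SD (n = 3) in black. LBP replicate 2, the red square, is the highest array for 7 of the 9 genes, and the groups lie apart only in Bhlhe40 and Rora.

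Among the PAR bZIP activators, Dbp and Tef had slightly higher and Hlf lower means after LBP. Dbp, the best known output gene of the clock, was at 9.32, 9.81 and 9.37 on LBP replicates 1, 2 and 3 and at 9.16, 9.35 and 9.61 on PBS replicates 1, 2 and 3. The groups overlapped throughout, with LBP replicate 2 highest and PBS replicate 1 lowest. The log2 difference of Dbp was 0.12 (standard error 0.16, 95% confidence interval -0.23 to 0.47, p = 0.448 from limma, exact permutation p = 0.6). Without LBP replicate 2 it was -0.03.
Tef, first described as a factor of the thyrotroph cells of the pituitary, was at 6.82, 6.91 and 6.69 after LBP and at 6.63, 6.75 and 6.75 after PBS, in the order of the replicate numbers. LBP replicate 3 lay between the PBS arrays and the other two LBP arrays above them. Tef had a log2 difference of 0.10 (standard error 0.10, 95% confidence interval -0.13 to 0.32, p = 0.359 from limma, exact permutation p = 0.3).
Hlf, the PAR bZIP gene named for hepatic leukemia factor, was the only 1 of the 9 with a lower mean after LBP. Its values were 6.88, 7.23 and 7.20 after LBP and 7.11, 7.61 and 7.30 after PBS. The lowest array was LBP replicate 1 and the highest PBS replicate 2, and PBS replicate 1 lay below 2 of the LBP arrays. For Hlf the log2 difference was -0.24 (standard error 0.15, 95% confidence interval -0.56 to 0.09, p = 0.141 from limma, exact permutation p = 0.4). Its size changed with the array left out. It was -0.10 without PBS replicate 2 and -0.12 without LBP replicate 1, with unadjusted p-values of 0.496 and 0.443 from limma, and -0.35 without PBS replicate 1, with an unadjusted p of 0.0446. Whether Hlf differs from Dbp and Tef in its response was not tested.

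Nfil3, the D-box repressor, had the smallest difference of the 9. It was at 6.74, 6.73 and 6.84 after LBP and at 6.71, 6.61 and 6.77 after PBS, and the groups overlapped. The log2 difference was 0.07 (standard error 0.10, 95% confidence interval -0.14 to 0.29, p = 0.473 from limma, exact permutation p = 0.4). The interval leaves room for a fold between 0.906 and 1.22.

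Both E-box repressors had slightly higher means after LBP, with LBP replicate 2 the highest array for each. Bhlhe40, which is also known as a gene induced by low oxygen and by cell activity, was at 8.92, 9.26 and 8.89 after LBP and at 8.79, 8.87 and 8.88 after PBS. The groups did not overlap, and the gap between LBP replicate 3 and PBS replicate 3 was the narrowest. This separation was seen in 9.63% of all genes, 4.35% with higher and 5.28% with lower values after LBP. The log2 difference of Bhlhe40 was 0.17 (standard error 0.12, 95% confidence interval -0.09 to 0.44, p = 0.178 from limma, exact permutation p = 0.1, the smallest possible). Without LBP replicate 2 it was 0.05.
Bhlhe41, its close relative on the same chromosome (6), was at 8.89, 9.06 and 8.90 after LBP and at 8.79, 8.76 and 8.89 after PBS. LBP replicate 1 lay just under PBS replicate 3, so that the groups overlapped. Bhlhe41 had a log2 difference of 0.13 (standard error 0.10, 95% confidence interval -0.09 to 0.35, p = 0.216 from limma, exact permutation p = 0.2), and without LBP replicate 2 it was 0.08.

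Rora and Rorb, the activating receptors, differed from each other in how far the arrays spread. Rora, which is expressed in many tissues, was at 7.69, 7.80 and 7.71 after LBP and at 7.56, 7.68 and 7.66 after PBS. All LBP arrays lay above all PBS arrays, by a narrow margin between LBP replicate 1 and PBS replicate 2. This gave Rora a log2 difference of 0.10 (standard error 0.09, 95% confidence interval -0.11 to 0.31, p = 0.308 from limma, exact permutation p = 0.1). Rora and Bhlhe40 were the 2 of the 9 genes whose groups did not overlap. This count was 3 without LBP replicate 2, 4 without LBP replicate 1 and 5 without PBS replicate 3. Fewer arrays separate more genes by construction. The share over all genes was not computed for these settings, so these counts are not read as a result about the layer.
Rorb, which is known from the retina, the brain and the dorsal horn of the spinal cord, was at 5.19, 6.22 and 5.33 after LBP and at 5.38, 5.47 and 5.41 after PBS. A single array, LBP replicate 2, stood above the rest, and the other two LBP arrays were the lowest of all. The log2 difference of Rorb was 0.16 (standard error 0.22, 95% confidence interval -0.34 to 0.66, p = 0.486 from limma, exact permutation p = 1), and it was -0.16 without LBP replicate 2.

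Usp2 was at 7.99, 8.33 and 8.22 after LBP and at 7.59, 7.66 and 8.00 after PBS. PBS replicate 3 lay just above LBP replicate 1, so that the groups overlapped by this pair, and the other two PBS arrays were below every LBP array. The mean was 8.18 ± 0.18 (SD, n = 3) after LBP and 7.75 ± 0.22 (SD, n = 3) after PBS. This is a log2 difference of 0.43 (standard error 0.14, 95% confidence interval 0.12 to 0.73), or a 1.35-fold higher mean with an interval from 1.09 to 1.66. Its p from limma was 0.0106 before and 0.999 after adjustment over all genes, and its exact permutation p was 0.2. Without PBS replicate 3 the log2 difference of Usp2 was 0.55 with an unadjusted p of 0.00248 from limma, and without LBP replicate 2 it was 0.35 with an unadjusted p of 0.0442. Leaving out LBP replicate 1 gave 0.52. With arrays weighted by their overall noise, the unadjusted p was 0.0624.

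**Figure D2:**
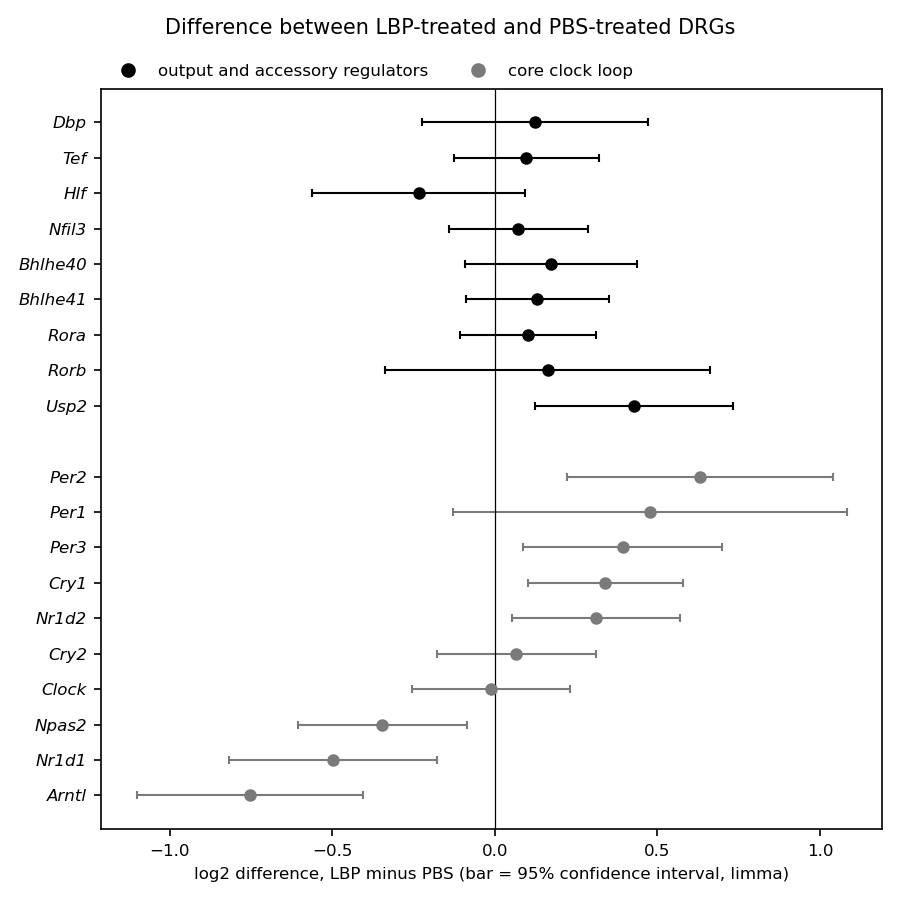
Log2 difference between LBP and PBS (horizontal axis) with its 95% confidence interval from limma for the 9 output and accessory regulators (black) and the 10 genes of the core clock loop (grey). Among the black points only the interval of Usp2, 0.12 to 0.73, leaves out 0, while 7 of the 10 grey intervals do.

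LBP replicate 2 was the highest array for 7 of the 9 genes (Nfil3 and Hlf were the exceptions), and it was the highest array for 20.1% of all genes. PBS replicate 1 was the lowest array for 5 of the 9, against 15.9% of all genes. Relative to the mean of the PBS arrays, LBP replicate 2 was 0.80 higher for Rorb, 0.58 for Usp2, 0.43 for Dbp and 0.41 for Bhlhe40 on the log2 scale. On the other arrays Rorb lay between -0.23 and 0.05 of that mean.
Genes listed as markers of the central nervous system (Mobp, Mog, Gfap and the like) stood out on the same array as a set. Gad1, Pax2 and Lhx1 of this list were highest on other arrays. Whether each gene marks only that tissue, which lies outside the ganglion, was not tested. Of 12 such markers, 9 were highest on LBP replicate 2, where the median marker was 0.86 above its PBS mean, and it was between -0.06 and 0.12 on the other arrays. Their summed intensity on the linear scale was 1537 on that array, 654 and 678 on the other LBP arrays and 623 to 693 on the PBS arrays. The mean of 1 of the 12 is under the lower quartile of all genes. Genes of Schwann cells and myelin were also highest there in 7 of 7 cases, with a median of 0.56 above the PBS mean, against -0.25 to 0.02 on the other arrays. The part of these cells in the values of Rorb, Dbp and Bhlhe40 was not tested. Markers of sensory neurons such as Prph, Isl1, Avil and Scn10a were present on all arrays, with 0 of 12 under the lower quartile and a median log2 difference of -0.01.

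**Figure D3:**
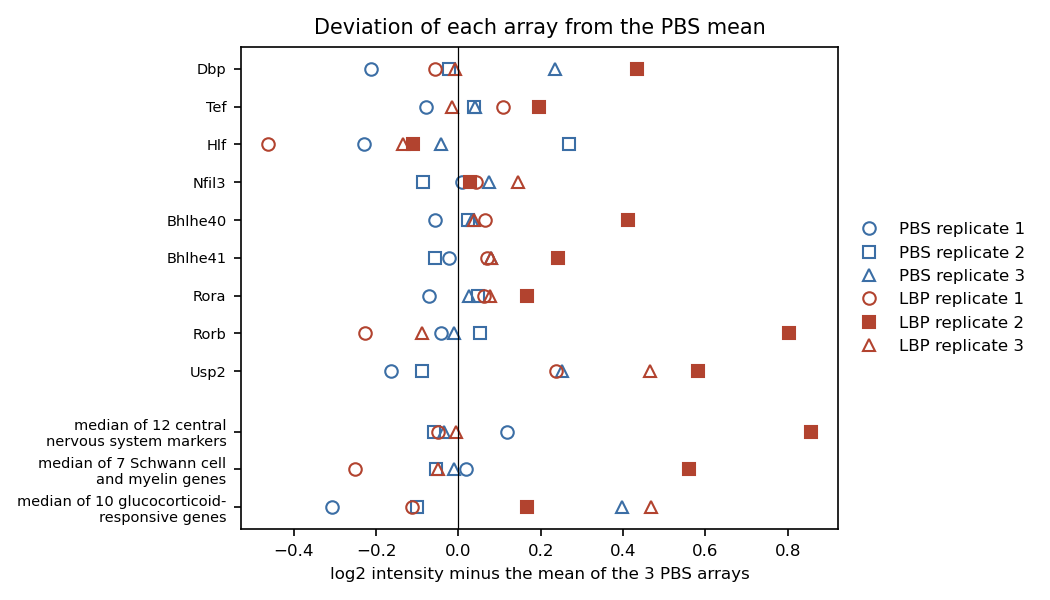
Log2 intensity of each array minus the mean of the 3 PBS arrays (horizontal axis) for the 9 genes and for the medians of 3 marker lists. LBP replicate 2 (filled square) lies farthest to the right for Rorb, at 0.80, and for the median of 12 central nervous system markers, at 0.86.

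Other sets of genes also varied between arrays of 1 group. The median of 9 skeletal muscle genes lay 0.36, -0.94 and 0.46 from the PBS mean on PBS replicates 1, 2 and 3. On LBP replicates 1, 2 and 3 it lay 0.07, -1.11 and -0.35 from that mean. The part of muscle in the values of the 9 regulators was not tested. Genes known to respond to glucocorticoids, such as Fkbp5, Sgk1 and Zbtb16, were low on PBS replicate 1 and high on PBS replicate 3 and LBP replicate 3. The median of 10 such genes lay -0.31, -0.10 and 0.40 from the PBS mean on PBS replicates 1, 2 and 3, and -0.11, 0.17 and 0.47 from it on LBP replicates 1, 2 and 3. Usp2 lay -0.16, -0.09 and 0.25 from its PBS mean on the PBS arrays in the same order. It was 0.24, 0.58 and 0.47 above that mean on the LBP arrays. The summed intensity of the glucocorticoid-responsive genes was 4759.8 to 7000.05 after LBP and 4282 to 7039 after PBS, so that the sums overlapped between the groups. Of the 10 genes, 9 had higher and 1 a lower mean after LBP, with a median log2 difference of 0.20. Tsc22d3 is in this list and also among the genes that cycle in many organs, described below, so the 2 lists are not separate. At an unadjusted p under 0.05 from limma, 1 of them (Fmo2, log2 difference 1.08) was higher after LBP, as were 2.07% of all genes, and 0 passed the adjustment. Their part in the values of Usp2 was not tested.

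The genes also differed in how much their arrays varied within a group. Against genes whose mean lay within 0.25 log2 units of their own, Rorb had a larger residual SD than 98.7% of genes and Dbp than 95.6%. Hlf (88.6%) and Usp2 (85.3%) were also among the more variable genes, and Bhlhe40 stood at 69.3%. Bhlhe41 (25.2%), Tef (21.4%), Nfil3 (11.3%) and Rora (7.43%) varied less than most genes of like intensity. In Dbp the spread was present in both groups, with an SD of 0.27 after LBP and 0.22 after PBS, while in Rorb the SD was 0.56 after LBP and 0.05 after PBS. None of the 9 genes had a mean under the lower quartile over all genes, which was 5.05. The lowest mean of the 9 was that of Rorb, at 5.50, above the mean of 32.8% of genes. The quartile is not a limit of detection, and whether Rorb is expressed in the ganglion was not tested.

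Over the 6 arrays, the genes most like Dbp were Zcchc14 (Pearson r = 0.998), Polr3e (0.988), Spen (0.981), 6230400D17Rik (0.975) and Ubp1 (0.974), out of 12310 genes above the median intensity. The most opposed were Irak1bp1 (-0.991), Zfp93 (-0.988), Acadl (-0.984), Bid (-0.979) and Sgsm3 (-0.974). With so many genes and 6 points, values of this size are a description of these arrays. None of these 10 genes is a clock gene of the lists used here. Within the layer, r with Dbp was 0.85 for Bhlhe40, 0.83 for Bhlhe41, 0.80 for Rorb and 0.78 for Tef, and it was 0.20 for Hlf and 0.14 for Nfil3. These points share LBP replicate 2, the highest array for Dbp and the 4 genes that follow it.

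The core clock loop, measured on the same arrays, had log2 differences from -0.75 to 0.63, while those of the 9 output and accessory genes ran from -0.24 to 0.43. Of its 10 genes, 4 had higher and 3 lower values after LBP at an unadjusted p under 0.05, and 0 passed the adjustment over all genes. Without LBP replicate 2, 6 of these 7 genes (all but Per3) had such a p. In that fit 6.34% of all genes had such a p, against 4.72% with all arrays. Arntl was at 6.40, 6.33 and 6.21 after LBP and at 7.37, 7.13 and 6.71 after PBS (log2 difference -0.75, p = 0.000691 and adjusted p = 0.790 from limma, exact permutation p = 0.1). Nr1d1 had a log2 difference of -0.50, Per2 one of 0.63 and Cry1 one of 0.34, with p-values of 0.00596, 0.00642 and 0.0101 from limma. Per3, named here for the D-boxes printed above and chosen after its values were seen, was at 7.81, 8.29 and 8.02 after LBP and at 7.48, 7.68 and 7.77 after PBS (log2 difference 0.39, p = 0.0168 from limma, exact permutation p = 0.1). The loop and its output were not tested against each other.

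Genes that are known to cycle with the clock in many organs included others with higher values. Of 6 such genes (Usp2 aside), 5 had higher means after LBP, with a median log2 difference of 0.22, and 2 had an unadjusted p under 0.05. Such a p was found in 4.72% of all genes, 2.07% with higher values after LBP. Lonrf3, a ubiquitin ligase family gene, was at 6.27, 5.84 and 5.84 after LBP and at 5.36, 5.48 and 5.60 after PBS (log2 difference 0.51, p = 0.00382 and adjusted p = 0.938 from limma, exact permutation p = 0.1). Wee1, a kinase that holds cells before mitosis, was at 7.33, 7.47 and 7.50 after LBP and at 7.14, 6.71 and 7.29 after PBS (log2 difference 0.38, p = 0.0239 from limma, exact permutation p = 0.1). In both genes every LBP array lay above every PBS array. This held for 3 of the 6 genes and for 4.35% of all genes. Without LBP replicate 2 only Lonrf3 had such a p, as did 6.34% of all genes.
The targets of the PAR bZIP factors known from mouse liver and brain, among them Pdxk, Por, Alas1 and Nr1i3, held no such gene. Of 9 targets, 2 had higher and 7 lower means after LBP, with a median log2 difference of -0.06, and 0 had an unadjusted p under 0.05 in either direction (without LBP replicate 2 there was 1, Cyp7a1, with lower values). The differences ran from -0.23 to 0.02, and 3 of the 9 were under the lower quartile of intensity. Among clock modifiers, such as the kinase genes Csnk1d and Csnk1e, 13 of 14 were in the table. Of these, 6 had higher and 7 lower means, with a median of -0.04 and 0 at an unadjusted p under 0.05.

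**Figure D4:**
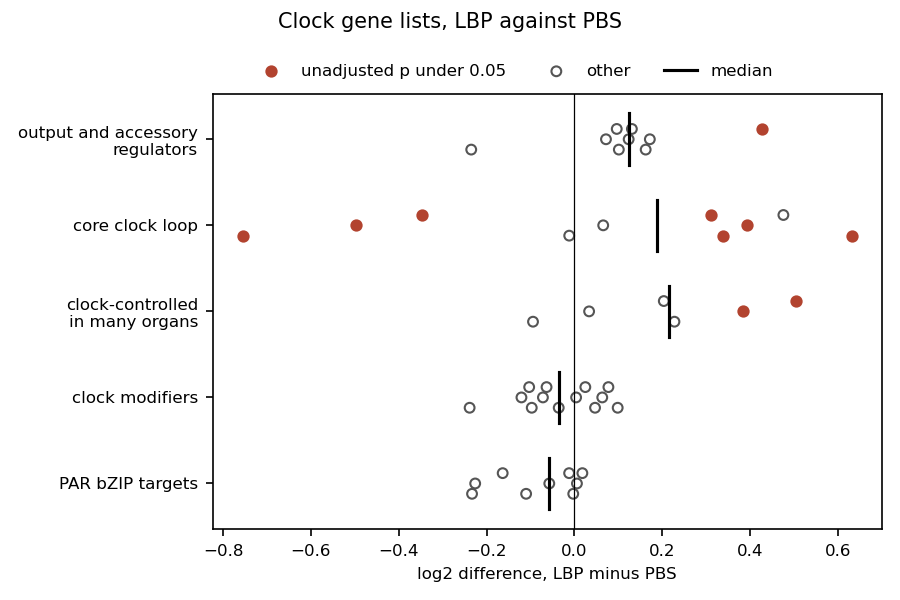
Log2 difference between LBP and PBS (horizontal axis) for each gene of 5 clock lists, with the median of each list as a black bar and genes at an unadjusted p under 0.05 from limma filled in red. Filled points stand in the core clock loop (7 of 10), the genes that cycle in many organs (2 of 6) and the output and accessory regulators (1 of 9, Usp2), and in neither of the other lists. Over all genes, 4.72% had such a p.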

How the data were processed

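L4/5 DRGs were measured on 6 arrays. The authors read the arrays with expresso (MAS5 method) in R and quantile-normalized them. Their methods give a rule for leaving out arrays of low mean correlation and name no array that was left out. They deposited log2 intensities, 1 value per gene symbol and array. No genome build or MAS5 version is given in the sources used here. The deposited table also holds the authors' own log2 fold changes, p-values and test statistics of LBP against control and 3 columns for single LBP arrays, which were not used.

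Of 24647 rows, 24 with symbols turned into dates were left out. For each of the 24623 genes a linear model with treatment as the factor was fitted by limma 3.58.1 (R 4.3.3; lmFit, then eBayes with 5.90 prior degrees of freedom) and tested two-sided with Benjamini-Hochberg adjustment. The fit was tested on simulated data. No batch is given in the labels. Array medians lay between 6.45 and 6.46, and correlations between arrays between 0.990 and 0.994. The number of arrays limits the precision. Replicates are separate samples by their titles.

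The 9 genes and all lists were chosen with earlier results of these data known. By a rule, the text names the 9 genes, up to 4 genes of each other clock list with the lowest p under 0.05, Arntl, and the 5 genes most like and most opposed to Dbp. Per3, Fmo2, Egln3, Ldha, Npas4 and Egr1 were named outside this rule, after their values were seen. Example genes of the lists also stand outside it. A further gene of the rule is not reported here. Noct and Ciart were found under their older symbols Ccrn4l and Gm129, and 4 listed genes were not found by symbol. Alternatives were leaving out each array, the replicate block, median centring, leaving out dim genes, an intensity trend or robust prior, array weights and the exact permutation test. Promoters came from RefSeq (GRCm38.p6), and motifs were searched in Python 3.11.15.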

Additional observations from a re-analysis of the deposited data

How the results depend on the processing

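None of the 9 genes passed an adjusted p under 0.05 in any fit, and the lowest adjusted p was 0.707 (Usp2, with the replicate block). Of 108 refitted differences, 105 kept their direction. This count overstates stability. The replicate block, leaving out dim genes, the intensity trend and the robust prior leave each difference as in the main fit by construction. Median centring shifts all differences alike and by little (Dbp from 0.123 to 0.126). Only leaving out an array or weighting arrays could change a direction here. Dbp reversed to -0.032 without LBP replicate 2 and to -0.016 with array weights, and Rorb to -0.16 without LBP replicate 2. With other arrays left out their differences reached 0.24 (Dbp, without PBS replicate 3) and 0.36 (Rorb, without LBP replicate 1). The cause was not tested. With 1 array left out, between 1 and 2 of the 9 genes had an unadjusted p under 0.05 (2 without PBS replicate 1, Usp2 and Hlf). The share of all genes with such a p lay between 3.93% and 6.34% in these fits. The median log2 difference of the 9 lay between 0.05 and 0.16. Between 2 and 5 of the 9 had groups that did not overlap, the most without PBS replicate 3. Fewer arrays leave more genes without overlap by construction, and the share over all genes was not computed for these settings. With array weights 0 of the 9 genes had an unadjusted p under 0.05, where 6.43% of all genes did. Without LBP replicate 2, a setting chosen for the other lists after seeing the data, the count at an unadjusted p under 0.05 went from 7 to 6 in the core clock loop, from 2 to 1 among genes that cycle in many organs, from 0 to 1 among PAR bZIP targets and stayed at 0 among clock modifiers. Over all genes this share went from 4.72% to 6.34%. Over the refits the log2 difference of Usp2 lay between 0.29 and 0.55, with unadjusted p from 0.00248 to 0.0624 from limma. The exact permutation p of Usp2 was 0.2.

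The replicate numbers are not known to pair the arrays. The deviations of same-numbered arrays from their group means correlated at 0.11, -0.03 and 0.08 for numbers 1, 2 and 3, and LBP replicate 2 correlated best with PBS replicate 1 (0.13). With the replicate block, 1 of the 9 genes had an unadjusted p under 0.05 (Usp2, an unadjusted p of 0.00634 from limma), where 5.3% of all genes did. The median log2 difference stayed at 0.12, and 4 genes of all passed the adjustment in place of 2.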

Other observations

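Bhlhe40 is known to respond to low oxygen and to cell activity. Of 9 targets of the hypoxia-inducible factor in the table, 4 had higher and 5 lower means after LBP, with a median log2 difference of -0.02. Egln3 (-1.04) and Ldha (-0.25) were lower at an unadjusted p under 0.05 from limma, and Bhlhe40 itself was at 0.17. Of 11 immediate early genes, 4 had higher and 7 lower means, with a median of -0.03. Npas4 was higher (0.32) and Egr1 lower (-0.36) at an unadjusted p under 0.05, and 0 genes of either list passed the adjustment over all genes (adjusted p from limma). These 4 genes were named after their values were seen. Over all genes, 4.72% had an unadjusted p under 0.05 from limma, 2.07% with higher and 2.65% with lower values after LBP. The part of low oxygen or cell activity in the values of Bhlhe40 was not tested.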
